A study of Mus musculus with 24 samples.

Results

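The 10 chemokine genes described here are *Ccl2*, *Ccl5*, *Ccl7*, *Ccl20*, *Cxcl1*, *Cxcl2*, *Cxcl10*, *Cxcl12*, *Cxcl16* and *Cx3cl1*, and they were chosen by name, through array probes whose accession leads to one of these symbols. A total of 8 of the 10 passed the filter on dim probes and were tested among 27971 genes. *Ccl20* was not well above background on any array and *Cxcl2* on 3, so neither was tested after that filter. RNA of whole kidneys from age-matched young male mice had been hybridized to single-color arrays, 1 kidney per array: 6 control kidneys (*mgb+/+*) and 18 hydronephrotic kidneys (*mgb-/-*), of which 7 were graded mild, 5 moderate and 6 severe. *mgb* stands for megabladder, a mutation in which the bladder muscle fails to form and urine backs up into the kidney from before birth. Every hydronephrotic kidney was *mgb-/-* and every control *mgb+/+*, so the genotype and the obstruction cannot be told apart. The grade comes from ultrasound and rests on how much parenchyma is left. Whether a mouse gave 1 kidney or both is not in the labels, and the p-values measure only the spread between these kidneys.

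Chemokines are small secreted proteins that draw leukocytes into tissue along a gradient, and each acts through 1 or a few G protein-coupled receptors on the cells it attracts. In obstructed kidneys, stretched and injured tubules are a known source of them, together with endothelium and the leukocytes that have already arrived. *Cxcl1* and *Cxcl2* act on neutrophils through Cxcr2. *Ccl2* and *Ccl7* act on monocytes through Ccr2, *Ccl5* on T cells and macrophages, *Ccl20* through Ccr6 and the interferon-inducible *Cxcl10* on T cells through Cxcr3. *Cxcl12* holds Cxcr4-bearing cells in place, and *Cxcl16* and *Cx3cl1* are made as membrane-bound proteins that bind Cxcr6 and Cx3cr1.

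RefSeq promoters on build GRCm38.p6 were found by symbol for 6 of the members: *Ccl20*, *Cxcl1*, *Cxcl2*, *Cxcl10*, *Cxcl12* and *Cx3cl1*. Those of *Cxcl1*, *Cxcl2* and *Cxcl10* are shown because *Cxcl1* was the member that rose in *mgb-/-* kidneys, *Cxcl2* shares with it a run of 14 letters, and *Cxcl10* carries other matches of the NF-kB consensus but did not pass the test. Each line holds the 250 bases before the gene's start, 5′ to 3′ on the gene's own strand, at chr5:90890995-90891244 (plus strand) for *Cxcl1*, chr5:90903649-90903898 (plus strand) for *Cxcl2* and chr5:92348890-92349139 (minus strand) for *Cxcl10*. Capitals mark matches of the NF-kB consensus and, in *Cxcl10*, also of GAAA, any 2 letters and GAAA, a pair known from interferon-responsive genes, all searched on both strands.
Cxcl1: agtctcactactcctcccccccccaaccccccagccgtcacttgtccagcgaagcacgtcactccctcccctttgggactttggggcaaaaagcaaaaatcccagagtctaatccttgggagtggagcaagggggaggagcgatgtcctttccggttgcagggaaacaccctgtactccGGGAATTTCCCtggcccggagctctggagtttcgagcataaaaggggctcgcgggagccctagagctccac
Cxcl2: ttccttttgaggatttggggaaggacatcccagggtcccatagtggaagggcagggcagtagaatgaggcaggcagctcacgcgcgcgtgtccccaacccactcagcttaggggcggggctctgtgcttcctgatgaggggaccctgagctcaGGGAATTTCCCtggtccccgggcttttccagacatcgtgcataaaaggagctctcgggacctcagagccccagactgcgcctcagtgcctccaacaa
Cxcl10: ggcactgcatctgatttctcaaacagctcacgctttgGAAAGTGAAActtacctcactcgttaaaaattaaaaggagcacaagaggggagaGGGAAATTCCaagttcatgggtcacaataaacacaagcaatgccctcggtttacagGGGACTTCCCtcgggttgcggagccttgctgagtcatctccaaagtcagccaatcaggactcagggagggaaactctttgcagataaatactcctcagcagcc
The letters GGGAATTTCC begin 71 bases before the start of *Cxcl1* and 97 bases before that of *Cxcl2*, and the consensus matches there on both strands, overlapping. That word was picked after the sequences were read. It occurs on either strand in 0.0852% of all 32851 promoters of this length, and the wider NF-kB consensus, which includes it, in 3.90%. *Cxcl10* has 2 matches of the consensus, beginning 159 and 103 bases before its start, and its GAAA pair begins 213 bases before it, a motif found in 2.98% of promoters. *Ccl20* holds 1 match of the consensus, beginning 80 bases before its start. The windows of *Cxcl12* and *Cx3cl1* hold none of these letters. A match describes the sequence and was not tested as a binding site.

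Levels are log2 of the background-subtracted intensity minus the array's own 75th percentile, so a level of 0 is as bright as the 75th percentile of that array's probes, and levels are compared only within a gene. The share of probes well above background ran from 55.1% to 70.7% over the arrays, and no spot was saturated. A pair of severe kidneys stood apart. Severe replicate 4 had the lowest share of probes above background, 55.1%. Severe replicate 5 had the highest level of 7 of the 8 tested members among all *mgb-/-* kidneys. The 7 kidney markers examined, among them the proximal tubule gene *Lrp2* and the podocyte gene *Nphs1*, had a mean level between 3.84 and 5.48 over the 24 kidneys.

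*Cxcl1*, the neutrophil-attracting ligand, was higher in every *mgb-/-* kidney than in any control kidney. In the 6 control kidneys its lowest, median and highest levels were -4.70, -3.66 and -3.17. In the 7 mild kidneys they were -2.31, -1.49 and 0.20. The 5 moderate kidneys had levels of 1.14, 1.64, -0.99, -0.68 and -1.62. In the 6 severe kidneys the lowest, median and highest were -2.27, -0.29 and 2.71. The lowest *mgb-/-* kidney, mild replicate 3, thus lay above the highest control kidney, replicate 2, and the 2 groups did not overlap. Of 27647 genes with a value in every kidney, 0.34% were higher in all *mgb-/-* kidneys than in all controls.

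The mean of the 18 *mgb-/-* kidneys was -0.49 ± 1.48 (SD) against -3.80 ± 0.61 in the 6 controls, a log2 change of 3.31 (SE 0.61), or 9.90-fold (95% confidence interval 4.16 to 23.5). In limma's moderated test across all genes the adjusted p was 0.00203. *Cxcl1* was the 1 member of 8 that passed this test at a 2-fold minimum and an adjusted p under 0.05, where 3.09% of all genes tested passed. The arrays lie on 3 slides, each with 2 control and 6 *mgb-/-* kidneys, and on each slide all 6 *mgb-/-* kidneys were above both controls. The *mgb-/-* mean was above the control mean of its slide by 3.14, 3.89 and 2.89 on the log2 scale. Without severe replicate 5 the log2 change was 3.12 (adjusted p = 0.00126, limma).

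**Figure D1:**
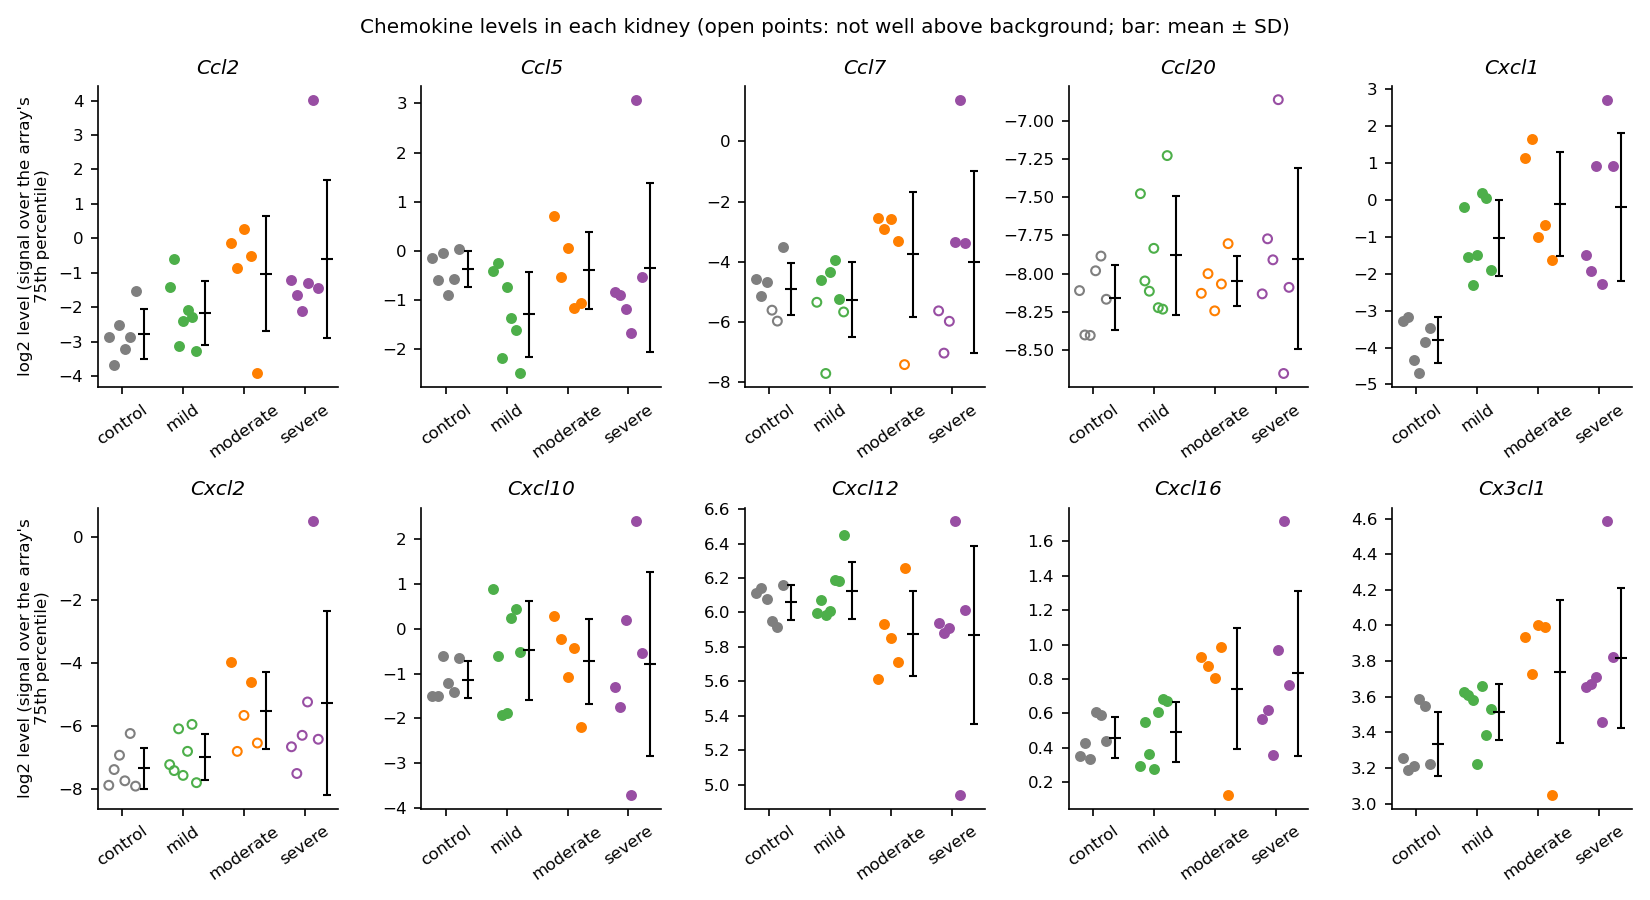
Level of each of the 10 chemokines in each of the 24 kidneys, as log2 signal over the array's 75th percentile, by group on the horizontal axis, with a separate vertical scale for each gene. Filled points were well above background, open points were not, and the bars give mean ± SD. *Cxcl1* is the 1 panel in which all 18 *mgb-/-* kidneys lie above the 6 controls among the tested genes, and a single severe kidney is the highest in 7 of the 8 tested genes.

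Each grade taken alone gave the same direction for *Cxcl1*, against the same 6 control kidneys. Mild kidneys were 6.83-fold above control (log2 change 2.77, SE 0.71, adjusted p = 0.0248 by limma), in a comparison in which 2.21% of genes were called. Moderate kidneys were 12.9-fold above control (3.69, SE 0.78, adjusted p = 0.0276, limma), where 0.729% of genes were called. Severe kidneys were 12.2-fold above control (3.61, SE 0.74, adjusted p = 0.00455, limma), where 4.71% of genes were called. In each of these 3 comparisons *Cxcl1* was the 1 member of 8 that passed. None of its groups overlapped with control, and 2.99%, 1.32% and 2.87% of genes were higher without overlap in mild, moderate and severe kidneys.

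The mild and moderate calls did not hold throughout. Under median scaling in place of the 75th percentile, the log2 change in mild kidneys was 2.63 (adjusted p = 0.0551, limma). The adjusted p rose to at most 0.0618 on leaving out control replicates 3 or 4, or mild replicates 5 or 6, each in turn. In moderate kidneys it rose above the threshold on leaving out control replicates 3, 4 or 6 or moderate replicates 1 or 4, to at most 0.122 without moderate replicate 1. The severe call held without severe replicate 5, at 3.03 (adjusted p = 0.0118, limma).

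*Cxcl1* did not follow the grade. Group means ran from control (-3.80) through mild (-1.03) and severe (-0.19) to moderate (-0.11). The 3 hydronephrotic grades did not differ beyond their spread: severe over mild was 0.83 on the log2 scale (95% confidence interval -0.65 to 2.32), moderate over mild 0.92 (-0.64 to 2.48) and severe over moderate -0.09 (-1.70 to 1.53). These intervals do not show that the grades are alike, since each reaches past a 2-fold difference in at least 1 direction. No member was called between grades by limma, where 0.461% of genes were called between severe and mild, 0% between moderate and mild and 0.00715% between severe and moderate. None of the 8 members had an unadjusted p under 0.05 in these comparisons either, on the 1 probe used for each gene. The second, dimmer probe of *Cxcl12* did in severe over mild kidneys (-0.46, unadjusted p = 0.00411, adjusted p = 0.221, limma over probes).

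*Cxcl2*, which is known to act on the same receptor as *Cxcl1*, stood well above background on 2 of 5 moderate kidneys and 1 of 6 severe kidneys, and on none of the 7 mild or 6 control kidneys. Its level was 0.51 in severe replicate 5 and -3.95 in moderate replicate 1, against a highest control level of -6.23. Set against the lowest signal that was well above background on each control array, the severe mean was 1.48-fold higher and the moderate mean 1.25-fold higher. Both means include kidneys not well above background, so neither is a firm lower bound. The moderate value rests on replicates 1 and 4 (-3.95 and -4.59). The other moderate levels, -6.80, -5.66 and -6.53, were not well above background. The severe value rests on replicate 5: none of the other 5 severe kidneys was well above background, and their mean of -6.42 lay below that control bound of -5.83. The measured means were -5.26 in severe, -5.50 in moderate and -7.34 in control kidneys. Fitted without the filter, the severe change was 2.08 on the log2 scale with an adjusted p of 0.151 by limma. The moderate change was 1.83 (adjusted p = 0.380, limma). *Ccl20* was at background throughout, between -8.65 and -6.86 on all *mgb-/-* arrays.

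*Ccl2*, the monocyte-attracting ligand, had higher means in hydronephrotic kidneys but did not pass the test in any comparison. Its control levels had a lowest, median and highest of -3.67, -2.86 and -1.52. The mild levels were -3.28, -2.27 and -0.60. The moderate kidneys had -0.14, -0.85, 0.27, -0.50 and -3.92, and the severe kidneys -2.11, -1.36 and 4.02. Thus 4 of 5 moderate and 4 of 6 severe kidneys lay above the highest control, while moderate replicate 5 lay below the lowest control. The log2 change of *mgb-/-* over control was 1.44 (SE 0.71, adjusted p = 0.177, limma). For severe over control it was 2.16 (SE 0.83, adjusted p = 0.0769, limma), and without severe replicate 5 it fell to 1.24 (adjusted p = 0.164). Without moderate replicate 5, which enters that fit through the shared estimate of the spread, the adjusted p was 0.0498 and *Ccl2* was called.

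*Ccl7*, known to share Ccr2 with *Ccl2*, was well above background on 15 of 24 arrays. Control levels had a lowest, median and highest of -5.97, -4.91 and -3.52. Moderate kidneys had -2.54, -2.90, -2.56, -3.31 and -7.42, so that 4 of 5 were above every control and 1 was below every control. Severe kidneys spread from -7.04 to 1.39, with a median of -4.51. The change of *mgb-/-* over control was 0.49 (SE 0.88, adjusted p = 0.757, limma), and 0.15 without severe replicate 5. It was 1.17 in moderate and 0.91 in severe kidneys, and the severe value turned to -0.16 without severe replicate 5.

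*Ccl5*, a T cell and macrophage attractant, was not called and its mean was lowest in mild kidneys. Control levels ran from -0.91 to 0.04 with a median of -0.36, and the 7 mild kidneys from -2.50 to -0.25 with a median of -1.38, of which 4 were below the lowest control. The log2 change in mild kidneys was -0.93 (SE 0.57, adjusted p = 0.372, limma), and with quality weights on the arrays it was -1.09 (adjusted p = 0.0205), which is a call. Moderate kidneys had 0.71, -0.53, 0.05, -1.17 and -1.07. In severe kidneys 5 of 6 were below the control mean and severe replicate 5 was at 3.08, so the change was 0.03 with that kidney and -0.66 without it. *Cxcl10*, the interferon-inducible ligand, was higher than every control in 10 of 18 and lower than every control in 5 of 18 *mgb-/-* kidneys. Its change was 0.49 (SE 0.56, adjusted p = 0.605, limma), and 0.31 without severe replicate 5. In severe kidneys it was 0.35, and -0.28 without that kidney. The severe levels ran from -3.71 in replicate 4 to 2.40 in replicate 5 around a control range of -1.49 to -0.60.

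**Figure D2:**
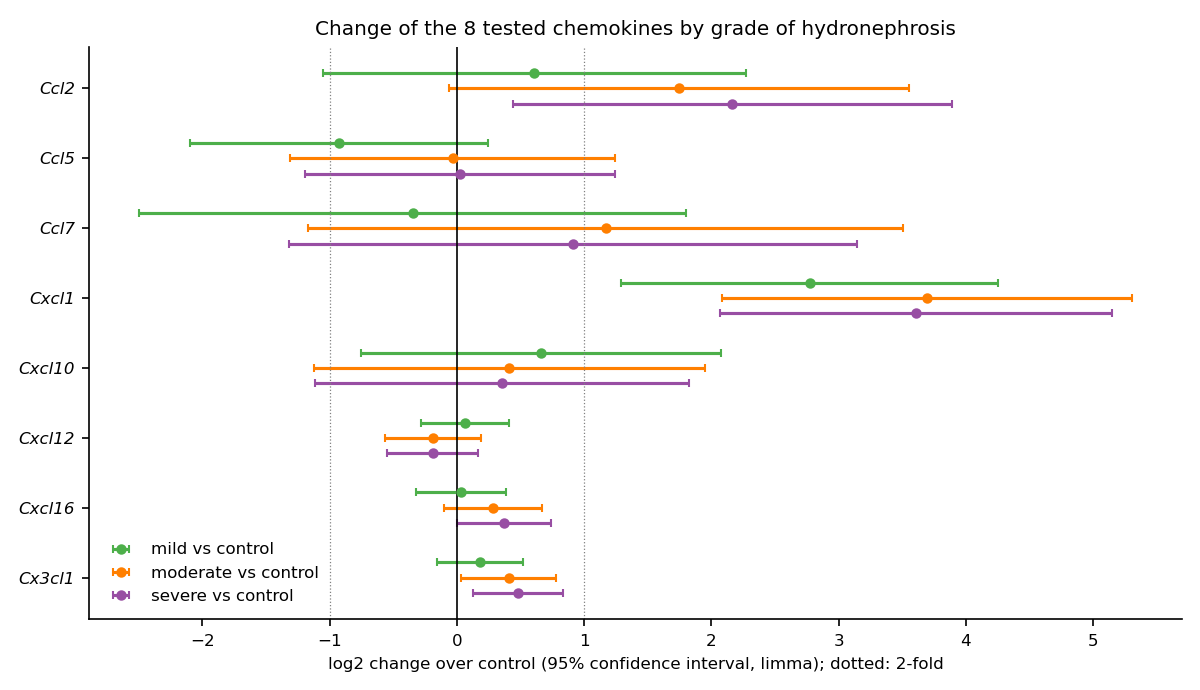
Log2 change over the 6 control kidneys of each of the 8 tested chemokines (rows) in mild, moderate and severe kidneys, with 95% confidence intervals from limma and dotted lines at 2-fold. The 3 intervals of *Cxcl1* lie above 1, while those of *Cxcl12*, *Cxcl16* and *Cx3cl1* are narrow and lie between -1 and 1.

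The membrane-bound ligands did not pass the test, and their changes were small. *Cx3cl1*, which binds Cx3cr1 on monocytes and resident macrophages, had control levels of 3.19 to 3.59 with a median of 3.24. Mild kidneys ran from 3.22 to 3.66 (median 3.58), and moderate kidneys were at 3.94, 3.73, 4.00, 3.99 and 3.05. Severe kidneys ran from 3.46 to 4.58 (median 3.69). A total of 12 of 18 *mgb-/-* kidneys were above the highest control, among them 5 of 6 severe and 4 of 5 moderate kidneys. The log2 change was 0.34 over all *mgb-/-* kidneys (SE 0.14, adjusted p = 0.113, limma) and 0.48 in severe kidneys (SE 0.17, adjusted p = 0.0564), or 1.40-fold. The severe value was 0.33 without severe replicate 5. *Cxcl16*, the ligand of Cxcr6, changed by 0.22 (SE 0.15, adjusted p = 0.372, limma) over all *mgb-/-* kidneys and by 0.37 in severe kidneys (adjusted p = 0.153). Without severe replicate 5 the severe value was 0.20. Its moderate levels of 0.93, 0.87, 0.81, 0.99 and 0.13 held 4 kidneys above and 1 kidney below a control range of 0.33 to 0.61.

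*Cxcl12*, the constitutive ligand of Cxcr4, kept to a narrow range in control kidneys (SD 0.10) and a wider one in severe kidneys. The severe SD was 0.51, and 0.27 without severe replicate 5. The brighter of its 2 probes read 5.92 to 6.16 in control kidneys and 5.98 to 6.45 in mild kidneys, and it read 5.62 to 6.26 in moderate and 4.94 to 6.53 in severe kidneys. The change was -0.09 over all *mgb-/-* kidneys (95% confidence interval -0.39 to 0.21), so that a 2-fold change of the mean lies outside the interval. The 2 probes differed in size: in severe over control kidneys the brighter gave -0.19 (adjusted p = 0.490, limma over probes) and the dimmer -0.40 (adjusted p = 0.0738). Severe replicate 5 was the lowest *mgb-/-* kidney on both, and without it the brighter probe gave -0.00561.

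As a set, 6 of the 8 tested members had a higher *mgb-/-* mean than control mean, where 51.2% of all genes did. Their median change was 0.42 on the log2 scale, against 0.01 for all genes, and 0.22 without severe replicate 5. In mild kidneys the members' median was 0.12 (all genes 0.01), in moderate kidneys 0.41 (-0.03) and in severe kidneys 0.43 (0.02). Without severe replicate 5 the severe median was 0.10 (0.05), with 4 of 8 members higher. All of these comparisons share the 6 control kidneys.

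The spread between kidneys of a grade was not tested. In moderate and in severe kidneys it fell when 1 kidney, picked for its extreme levels, was left out, a step that lowers an SD in itself. No mild kidney was left out for this. The median SD of the 8 went from 0.39 in control to 0.90 in mild, was 0.87 in moderate and reached 1.86 in severe kidneys, whereas over all genes it was 0.27, 0.27, 0.38 and 0.48. Without severe replicate 5 the severe median SD of the members was 0.40 (all genes 0.38), near that of control, and without moderate replicate 5 the moderate one was 0.42 (0.36). The ratio of severe to control SD had a median of 3.78 over the members and 1.54 over all genes, and of 1.91 and 1.33 without severe replicate 5. *Cxcl1*, *Cxcl10* and *Ccl7* still had severe SDs of 1.56, 1.48 and 1.64 without it. Averaged over the 8 members, severe replicate 5 lay 3.50 above the control mean on the log2 scale, and the other *mgb-/-* kidneys lay between -0.52 and 1.64. Moderate replicate 5 had the lowest *mgb-/-* level of *Ccl2*, *Cxcl16* and *Cx3cl1*. On the 3rd slide the mean of *mgb-/-* kidneys was below that of the 2 controls for *Ccl5* (-1.13), *Ccl7* (-0.55) and *Cxcl10* (-0.73), while on the 2nd slide it was above for each of these (0.35, 1.65 and 1.42). The 2nd slide holds severe replicate 5, and without that kidney the values there were -0.31, 0.59 and 0.93.

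**Figure D3:**
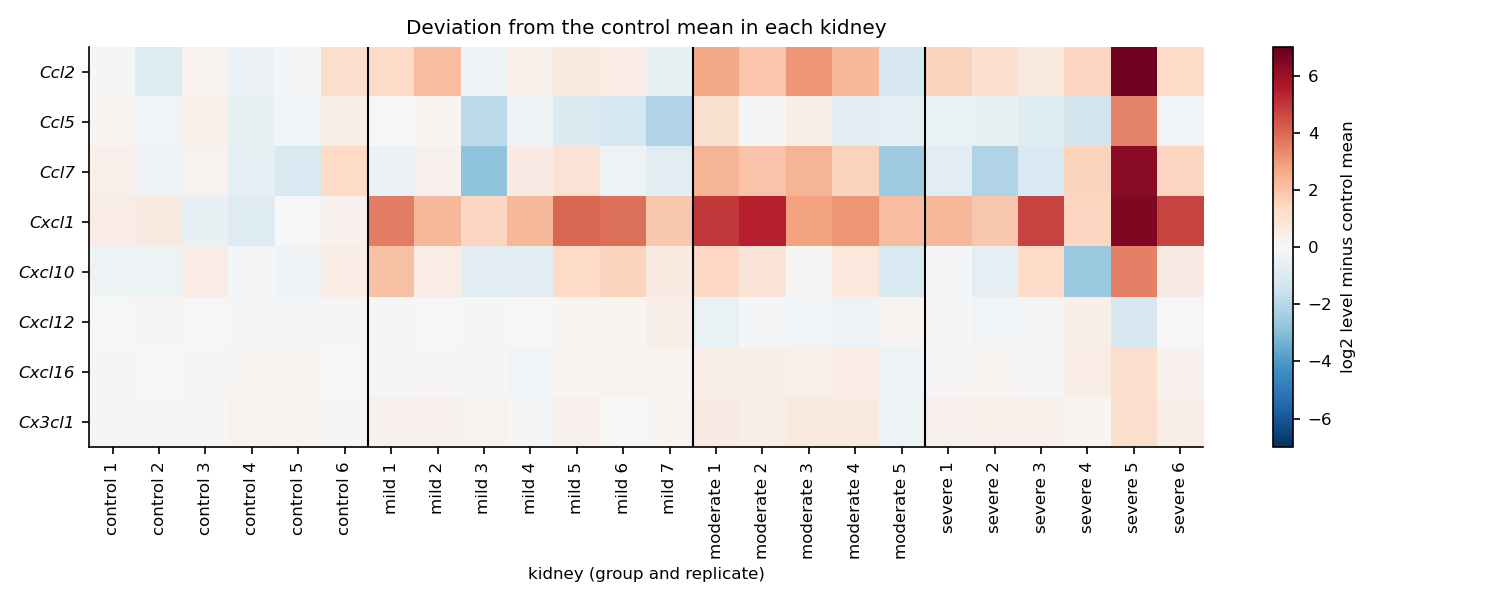
Level of the 8 tested chemokines (rows) in each kidney (columns) minus the gene's control mean, on the log2 scale shown by the color bar. *Cxcl1* is above its control mean in all 18 *mgb-/-* kidneys, and severe replicate 5 is the highest for every gene except *Cxcl12*, for which it is the lowest.

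The macrophage and neutrophil markers were on average highest in the kidney that stood out. The mean level of 8 monocyte and macrophage markers ran from 0.13 to 0.59 in controls, 0.20 to 1.02 in mild, 0.15 to 1.49 in moderate and -0.56 to 2.85 in severe kidneys. The highest value was that of severe replicate 5. Likewise 7 neutrophil markers ran from -2.84 to -1.97 in controls and from -2.14 to 1.25 in severe kidneys, again with severe replicate 5 at the top. None of the 8 macrophage and 7 neutrophil markers was called in *mgb-/-* over control kidneys by limma (all genes: 3.09%). In severe over control kidneys 1 of the 7 neutrophil markers was lower (-0.84), with an adjusted p under 0.05 by limma but short of 2-fold. In that comparison 2 neutrophil markers were called higher, *Mpo* (1.33) and *Retnlg* (2.66), and 0 of 8 macrophage markers were called (all genes: 2.99% higher). These 2 were well above background on only 5 and 7 arrays, and the calls were lost in 10 and 28 of 35 alternatives, among them leaving out severe replicate 5 (1.10 and 1.57), median scaling, quantile normalization, normexp and the authors' values. Of the 7 T and NK cell, 5 B cell and 5 dendritic cell markers tested, 0 were called in either comparison (all genes: 3.09% and 4.71%). The mean of the dendritic cell markers was highest in severe replicate 5 (-2.61, highest control -3.61). For T and NK cell markers that kidney, at -1.72, lay close to the highest control, -1.78. The B cell markers were highest in moderate replicate 1 (-3.12). The 7 urothelial markers, genes of the lining of the renal pelvis, ran from -1.39 to 0.07 in controls and from 1.93 to 3.69 in severe kidneys in their mean level, without overlap. All 7 were called higher in severe kidneys, where 2.99% of all genes were. The part of leukocytes and of urothelium in the chemokine levels was not tested, and in whole kidney more cells of a type and more RNA per cell cannot be told apart.

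The other ligands of the family moved in both directions. Of 28 further chemokine ligands 19 were tested, and 4 were called higher and 2 lower in *mgb-/-* kidneys (all genes: 1.82% higher and 1.26% lower), with a median of 0.32. The split over all genes depends on the scaling, as 59.1% of the calls were higher here and 38.7% with each array scaled by its median. *Ccl9* and *Ccl6*, macrophage-made ligands of Ccr1, were above the control mean in all 18 kidneys: *Ccl9* went from -2.79 ± 0.30 to -0.87 ± 1.21 (SD), a log2 change of 1.92 (SE 0.49, adjusted p = 0.0137, limma). *Ccl6* rose by 1.34 (SE 0.41, adjusted p = 0.0327) and *Ccl17*, a ligand of Ccr4, by 1.25 (SE 0.27, adjusted p = 0.00621). *Cxcl13*, the B cell attractant, was higher by 1.41 (SE 0.41, adjusted p = 0.0256). *Ccl28*, an epithelial ligand of Ccr10, was lower in 16 of 18 kidneys, with a log2 change of -1.61 (SE 0.42, adjusted p = 0.016). *Cxcl9*, an interferon-induced ligand of Cxcr3, changed by -1.05 (SE 0.28, adjusted p = 0.0182). In severe over control kidneys 3 were called higher and 1 lower (all genes: 4.71% in either direction, 2.99% higher), with a median of 0.79. Among the 3 was *Ccl19* (1.13, adjusted p = 0.0167, limma), a ligand of Ccr7.

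Some of these calls turned on the processing. That of *Cxcl9* was lost in 6 of 35 alternatives, with normexp background correction (-0.18, adjusted p = 0.300) and in the authors' table (-0.45), and without control replicates 1 or 3, mild replicate 6 or severe replicate 4 (-0.99 to -0.92). That of *Ccl6* was lost in 7 of 36, with median scaling (1.19, adjusted p = 0.0814), with the replicate number as a block (adjusted p = 0.0576) and without control replicates 1, 3, 4, 5 or 6 (adjusted p up to 0.0712). That of *Cxcl13* was lost with median scaling (adjusted p = 0.0501), with normexp (0.86), in the authors' table (0.91) and without control replicates 3 or 4 (adjusted p up to 0.0704), that of *Ccl17* with normexp (0.88) and in the authors' table (0.87), and that of *Ccl28* without control replicate 3 (adjusted p = 0.0553). In severe kidneys the call of *Ccl28* was lost in 10 of 36 alternatives (adjusted p up to 0.125), with the replicate number as a block, with control and severe kidneys fitted alone, without severe replicates 4 and 5 together, and without any 1 of control replicates 3, 4 and 6 and severe replicates 1, 2, 4 and 5. That of *Ccl9* in severe kidneys was lost with those groups fitted alone (adjusted p = 0.0747). Over the list, the count of 6 called went to 2 without control replicate 3. *Ccl9* remained called in all 36 alternatives of this comparison.

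**Figure D4:**
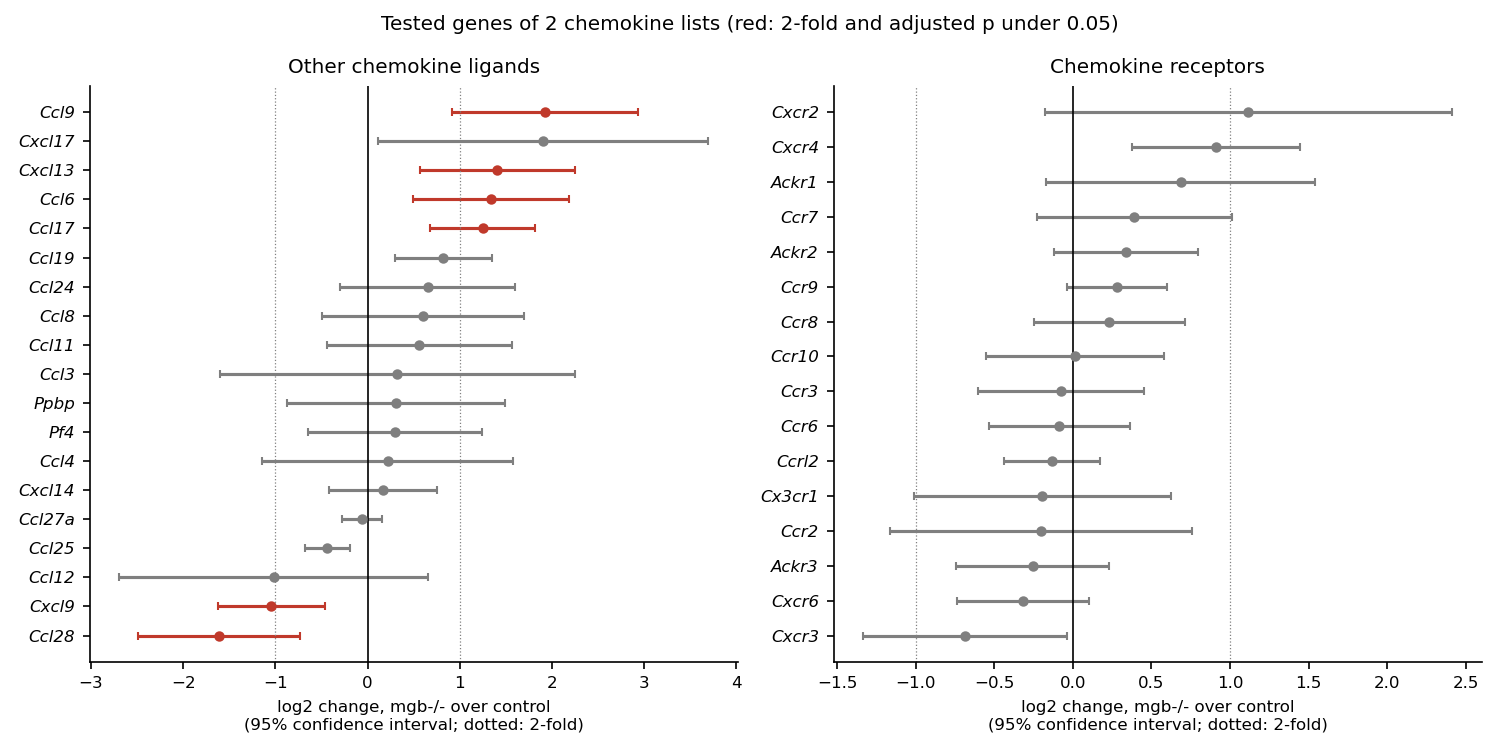
Log2 change of *mgb-/-* over control kidneys for the 19 tested other chemokine ligands (left) and the 16 tested chemokine receptors (right), with 95% confidence intervals from limma and dotted lines at 2-fold. Red marks the 4 ligands called higher and the 2 called lower, and no receptor is red.

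Of 22 chemokine receptors 16 were tested. None was called in *mgb-/-* over control kidneys by limma (all genes: 3.09%), and 1 was in severe kidneys (all genes: 4.71%). In *mgb-/-* kidneys 1 of them (*Cxcr4*) had an adjusted p under 0.05, and their median log2 change was -0.03. *Cxcr4*, the receptor of *Cxcl12*, was higher by 0.91 (SE 0.26, adjusted p = 0.024) in *mgb-/-* kidneys, short of 2-fold. It was called in severe kidneys (1.09, SE 0.32, adjusted p = 0.026), and that call was lost in 10 of 36 alternatives, among them median scaling (0.93, adjusted p = 0.110), quantile normalization (0.91), normexp (0.76), the authors' values (0.66), the 2 groups fitted alone, and leaving out control replicates 1 or 3 or severe replicates 1 or 5. *Cxcr2*, the receptor of *Cxcl1* and *Cxcl2*, was well above background on 7 arrays and changed by 1.12 (SE 0.63, adjusted p = 0.247). The changes were -0.20 for *Ccr2*, -0.09 for *Ccr6*, -0.69 for *Cxcr3*, -0.32 for *Cxcr6* and -0.19 for *Cx3cr1*, with adjusted p from 0.148 to 0.833. Among the proteases known to release or trim chemokines, *Adam10*, *Adam17*, *Dpp4* and *Mmp9*, 0 of 4 were called in either comparison (all genes: 3.09% and 4.71%). Their changes ran from -0.27 to 0.45 over all *mgb-/-* kidneys. The 0.45 is that of *Adam17*, which sheds *Cx3cl1* (adjusted p = 0.0218, under 2-fold).

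Of 22 genes of NF-kB signaling and its inducing cytokines 19 were tested. In *mgb-/-* kidneys 4 were called higher and none lower (all genes: 1.82% higher), with a median of 0.48. In severe kidneys 7 were called higher, with a median of 0.69 (all genes: 2.99% higher). *Nfkbia*, which encodes the inhibitor of NF-kB and is itself induced by it, rose by 1.35 (SE 0.24, adjusted p = 0.00186, limma) and was above the control mean in all 18 kidneys. *Il6ra*, a receptor chain of interleukin 6, rose by 1.03 (adjusted p = 0.00319) and *Tnfrsf1b*, a receptor of TNF, by 1.08 (adjusted p = 0.00906). *Il1b*, which encodes interleukin 1 beta, was higher by 1.61 (adjusted p = 0.0473), a call lost in 24 of 36 alternatives, among them leaving out any 1 control kidney (adjusted p up to 0.113). *Tnf* changed by 0.17 (adjusted p = 0.834). In severe kidneys *Nfkbiz* (1.30) and *Relb* (1.09), a co-regulator and a subunit of NF-kB, were called as well. Without severe replicate 5 the count of called genes fell from 4 to 2 in *mgb-/-* kidneys, as *Tnfrsf1b* and *Il6ra* dropped under 2-fold (0.99 each), and from 7 to 2 in severe kidneys. Median scaling gave 1 and 2, normexp 1 and 4, and the authors' values 1 and 3, and without control replicate 3 the *mgb-/-* count was 2. The call of *Nfkbia* held in all 36 alternatives. Of 13 interferon-responsive genes tested, 0 were called higher and 1 lower in *mgb-/-* kidneys (all genes: 1.82% higher and 1.26% lower). The 1 was the antiviral gene *Oas1a* (-1.18, SE 0.24, adjusted p = 0.00484, limma), and the median of the 13 was -0.38.

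For each member the genes whose levels ran most like it over the 24 kidneys were found by Pearson's r among the 16275 named genes without a missing value. The kidneys share the difference between groups and the high values of severe replicate 5, so these values are a description. *Cxcl1* ran most like *Junb* (r = 0.905) and *Egr1* (0.885). *Ccl2* ran most like *Adam8* (0.932) and *Mpeg1* (0.929), *Ccl7* like *Apbb1ip* (0.914) and *Arhgap9* (0.902), and *Ccl5* like *Fyb* (0.831). For *Cxcl10* they were *Il10ra* (0.833) and *Cybb* (0.831), and for *Cxcl12*, *Hnf4aos* (0.914) and *Kif17* (0.903). *Cxcl16* ran most like *C1ra* (0.933) and *Ripk3* (0.929), and *Cx3cl1* like *Adamts4* (0.944) and *Tmsb10* (0.923).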

How the data were processed

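Total RNA of 24 whole kidneys, 1 per array, was measured on single-color Agilent mouse arrays. The authors deposited each array's scanner output, made with Agilent Feature Extraction 10.10 per the labels: a processed intensity with background subtracted and spatial trend removed, median intensities of spot and local background, and other marks for outlier and dim spots. They also deposited a table of intensities normalized between arrays, by a method not given in the sources used here. All of its sample columns were mapped.

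The processed intensity was put on the log2 scale, less the 75th percentile of the array's spots other than controls. Outlier spots were left out and spots of a probe averaged. Of 55681 probes 26762 took a symbol through RefSeq accessions and 28919 kept their accession. A probe stayed if 5 arrays or more had it well above background, which left 38848, and the brightest probe stood for each gene. No depth applies to arrays: the number of kidneys limits the precision. The array holds 1 value per kidney, and chemokine protein was not measured.

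*mgb-/-* over control was fitted with limma 3.58.1 (R 4.3.3) on 2 groups, and the comparisons of grades on all 4 groups, which share 1 estimate of the spread. Adjustment (Benjamini-Hochberg) covered the 27971 genes tested, and called means 2-fold and an adjusted p under 0.05. Scripts were tested on simulated data. The 10 members, the gene lists and the tests were chosen with earlier results of these data known. Named genes are all members; up to 6 called genes per list, by size of change; the members' receptors, *Nfkbia*, *Il1b* and *Tnf*; and the 2 genes most like each member, of which 1 for *Ccl5* is not reported here. The proteases and *Ccl19* fall outside that rule and were named after their values were seen. Alternatives were quantile and median scaling, normexp background (offset 50, on median signals), the authors' table, other filters and probe rules, slide and replicate number as blocks, array weights, other thresholds and leaving out each kidney. For kidneys with the same replicate number in different groups, deviations from the group mean correlated with r from -0.55 to 0.65 (33 pairs, median 0.00464, 10 over 0.1). Pairs with different numbers were not compared, so this check cannot decide whether the numbers mark pairs or a batch. Plots used matplotlib 3.10.9 (Python 3.11.15).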

Additional observations from a re-analysis of the deposited data

Results flagged for a closer look

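Within each group of kidneys, a kidney was noted if its gap to the next one passed a cutoff share of the group's range. This marked 7 of 32 combinations of member and group, where chance alone marks about 1 in 20, or 1.6. All 7 concerned severe replicate 5 or moderate replicate 5, so the combinations are not independent and the 7 cannot be weighed against 1.6. The share over all genes was not counted. Severe replicate 5 was the highest of the severe kidneys for *Ccl2*, with a gap of 0.852 of the range, for *Ccl5* (0.761) and for *Cx3cl1* (0.674). Moderate replicate 5 was the lowest of the moderate kidneys for *Ccl7* (0.843), *Cxcl16* (0.789), *Ccl2* (0.734) and *Cx3cl1* (0.715). For *Ccl2* the level of severe replicate 5 was 4.02 and the next severe level -1.20, and moderate replicate 5 was at -3.92 with the next moderate level at -0.85. *Cxcl1*, *Cxcl10* and *Cxcl12* had no kidney past the cutoff in any group. Gaps that took up most of the range but stayed under the cutoff were not marked. Among them were those of severe replicate 5 for *Ccl7*, *Cxcl12* and *Cxcl16*.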

How the results depend on the processing

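The count of members called in *mgb-/-* over control kidneys was 1 under every alternative run, and the calls of *Cxcl1* there and in severe kidneys held in all of them. In mild over control kidneys it was 0 with median scaling, normexp background, the authors' table or the replicate block, 2 with array weights (*Cxcl1* and *Ccl5*), and 0 to 1 on leaving out 1 kidney. In moderate kidneys it was 0 with the replicate block and 0 to 1 on leaving out 1 kidney. In severe kidneys it was 2 at an adjusted p under 0.1, and 1 to 2 on leaving out 1 kidney. Between grades it was 0 throughout. Leaving out severe replicates 4 and 5 together, an alternative chosen after seeing the data, kept each of these counts.

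The replicate block took the *Cxcl1* call from mild (adjusted p = 0.0556) and moderate kidneys (0.0666), and the calls over all genes from 863 to 639 in *mgb-/-*, from 618 to 278 in mild, from 204 to 17 in moderate and from 1318 to 988 in severe over control kidneys. Over all genes normexp gave 468 and the authors' values 500 in place of 863. Median scaling moved the median of all genes in *mgb-/-* over control kidneys from 0.01 to -0.14, so changes under it are read against that shift.

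Small changes that were not called turned sign. With array weights *Ccl7* went to -0.18 in *mgb-/-*, -0.85 in severe and -0.48 in severe over mild kidneys, and *Ccl5* to 0.00967 in moderate and -0.56 in severe kidneys. With median scaling *Cxcl12* (-0.0788) and *Cxcl16* (-0.11) turned in mild and *Ccl5* (-0.14) in severe kidneys. *Cxcl12* in *mgb-/-* kidneys was 0.0328 with quantile normalization and 0.0124 in the authors' values. Without severe replicates 4 and 5, *Ccl5* was -0.50 and *Ccl7* -0.60 in severe over control and *Ccl7* -0.25 in severe over mild kidneys. Leaving out 1 kidney gave *Ccl7* in mild -0.57 to 0.0602, *Ccl5* in moderate -0.31 to 0.16, and in severe kidneys *Ccl5* -0.66 to 0.29, *Ccl7* -0.16 to 1.52 and *Cxcl10* -0.28 to 0.94, and *Cxcl10* in severe over mild -0.94 to 0.28.

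Among receptors, normexp gave 0.0409 (*Ccr2*) and 0.0197 (*Ccr6*) in *mgb-/-*, and 0.29 and 0.0952, with 0.0162 for *Cxcr3*, in severe kidneys. The authors' values gave 0.000561 in severe kidneys for *Ccr2*, which was 0.0223 with slide as a block. Leaving out 1 kidney gave *Tnf* -0.0166 to 0.26 in *mgb-/-*, and in severe kidneys *Ccr2* -0.68 to 0.22, *Ccr6* -0.18 to 0.0495 and *Cx3cr1* -0.63 to 0.17. The cause was not tested.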

Other observations

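Genes known as markers of injured tubules were also examined. Of 6 tested, 2 were called higher in *mgb-/-* over control kidneys by limma, where 1.82% of all genes were. They were the keratin *Krt20* (log2 change 2.75, SE 0.72, adjusted p = 0.0158) and the secreted phosphoprotein *Spp1* (1.06, SE 0.35, adjusted p = 0.0443). The call of *Spp1* was lost in 22 of 36 alternatives, among them median scaling (0.91, adjusted p = 0.108) and leaving out any 1 control kidney (adjusted p up to 0.084). In severe kidneys 1 was called, *Krt20* (4.02, adjusted p = 0.00164), where 2.99% of all genes were called higher. *Krt20* is also made by the surface cells of urothelium. The mean level of the 6 ran from 0.55 to 1.16 in control kidneys and from 1.69 to 5.62 in severe kidneys, the highest again being severe replicate 5. Of the 7 urothelial markers, *Upk1b*, a uroplakin of the urothelial surface, changed most in severe kidneys (3.84, SE 0.54, adjusted p = 0.000177). Over all *mgb-/-* kidneys 2 of the 7 were called, *Krt14* (2.10, adjusted p = 0.0275) and *Upk1b* (2.09, adjusted p = 0.0451), against 1.82% of all genes called higher. The call of *Krt14* was lost in 4 of 36 alternatives, without control replicates 2, 3, 4 or 5 (adjusted p up to 0.0644), and that of *Upk1b* in 22 of 36, among them quantile normalization, median scaling, slide or replicate number as a block and leaving out any 1 control kidney (adjusted p up to 0.107). Among 7 kidney markers 1 was called higher in severe kidneys, where 2.99% of all genes were. It was *Aqp2*, the water channel of the collecting duct (1.03, adjusted p = 0.023, limma). That call was lost in 9 of 36 alternatives, among them median scaling (0.87). Of the 7 kidney markers 3 had a higher and 4 a lower mean in severe than in control kidneys, with a median of -0.31. All 7 had a lower mean in severe than in mild kidneys.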
